A study of Arabidopsis thaliana with 116 samples.

Results

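Suberin synthesis and export were followed through 10 genes of Arabidopsis thaliana, chosen by locus: KCS2 (AT1G04220), KCS20 (AT5G43760), CYP86A1 (AT5G58860), CYP86B1 (AT5G23190), FAR1 (AT5G22500), FAR4 (AT3G44540), FAR5 (AT3G44550), GPAT5 (AT3G11430), ASFT (AT5G41040) and ABCG2 (AT2G37360). They are 10 of the 27655 genes of the count table, and each was found there. Col-0 seedlings 5 days of age were moved to medium with 2 µM abscisic acid (ABA), with 150 µM salicylic acid (SA), or without added hormone, which is the control. Root and shoot were parted by a razor cut at collection. Bulk RNA was sequenced at 1, 2, 4, 7, 24 and 48 h of each treatment and at 0 h without hormone. There were 3 libraries per tissue, treatment and time and 4 per tissue at 0 h, which makes 116 libraries in 38 groups. The study's text calls the replicates biological. In bulk tissue, fewer cells of a type and less RNA per cell cannot be told apart.

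Suberin is a polyester of fatty acids, fatty alcohols, glycerol and ferulic acid, laid down on the inner face of the cell wall. In young roots it coats endodermal cells that have already formed the Casparian strip, a lignin band, and it limits the passage of water and solutes. In this pathway the 3-ketoacyl-CoA synthases KCS2 and KCS20 lengthen fatty acyl chains, the cytochromes P450 CYP86A1 and CYP86B1 put a hydroxyl group on the chain end, and the reductases FAR1, FAR4 and FAR5 make primary fatty alcohols. GPAT5 joins acyl groups to glycerol, ASFT adds ferulic acid, and ABCG2 is an ABC transporter of suberin building blocks. ABA is known to increase suberin in Arabidopsis roots.

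On the RefSeq annotation of assembly TAIR10.1, the elongases lie at chr1:1119699-1122786 (KCS2) and chr5:17585523-17588733 (KCS20), and the hydroxylases at chr5:23765791-23768111 (CYP86A1) and chr5:7803141-7805968 (CYP86B1). FAR1 lies at chr5:7470328-7474133. FAR4, at chr3:16123426-16128030, and FAR5, at chr3:16137576-16142270, are on the same strand, 9545 bases apart with 1 annotated gene between them. GPAT5 lies at chr3:3595694-3597952, ASFT at chr5:16431304-16433305 and ABCG2 at chr2:15673410-15675920. FAR1, FAR4, ASFT, KCS2 and ABCG2 overlap a gene on the opposite strand, and while the library kit was stranded, per the labels, the use of strand in counting is not given in the sources used here, so reads of such partners could be in their counts. KCS2 and KCS20 share a stretch of 809 bases at 86.7% identity, and FAR4 and FAR5 share 162 bases at 87.7%, and each has stretches like AT3G44560, so a part of their reads may be hard to assign.

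The 300 bases before the annotated gene start are shown for 4 genes with unlike courses in the root: GPAT5 and ASFT, higher with ABA at every time, FAR1, highest of all against its control in SA at 48 h, and CYP86A1, not called with ABA at any time. The sequences are from RefSeq, assembly TAIR10.1, 5′ to 3′ on the gene's strand. Capitals mark, on either strand, the core of the ABA-responsive element, ACGTG, and the AC elements, a class of site bound by MYB factors, searched as ACCAACC or ACCTACC and as ACCAAAC or ACCTAAC.
GPAT5 promoter, chr3:3595394-3595693, plus strand: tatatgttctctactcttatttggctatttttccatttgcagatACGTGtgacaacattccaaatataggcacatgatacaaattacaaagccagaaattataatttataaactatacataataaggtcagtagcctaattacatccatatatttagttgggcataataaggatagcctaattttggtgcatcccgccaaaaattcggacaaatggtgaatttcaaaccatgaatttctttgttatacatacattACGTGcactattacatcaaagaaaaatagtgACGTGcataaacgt
ASFT promoter, chr5:16431004-16431303, plus strand: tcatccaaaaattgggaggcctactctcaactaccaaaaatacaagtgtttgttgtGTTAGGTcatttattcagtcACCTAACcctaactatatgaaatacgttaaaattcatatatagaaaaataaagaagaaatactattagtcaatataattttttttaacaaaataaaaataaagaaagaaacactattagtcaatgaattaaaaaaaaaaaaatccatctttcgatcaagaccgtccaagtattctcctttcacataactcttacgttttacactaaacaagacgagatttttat
FAR1 promoter, chr5:7470028-7470327, plus strand: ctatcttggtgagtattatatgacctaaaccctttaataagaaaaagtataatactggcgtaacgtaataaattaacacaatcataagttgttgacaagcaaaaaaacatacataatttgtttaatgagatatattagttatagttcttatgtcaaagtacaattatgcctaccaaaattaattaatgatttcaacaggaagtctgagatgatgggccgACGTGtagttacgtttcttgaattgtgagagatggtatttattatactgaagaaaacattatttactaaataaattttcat
CYP86A1 promoter, chr5:23768112-23768411, minus strand: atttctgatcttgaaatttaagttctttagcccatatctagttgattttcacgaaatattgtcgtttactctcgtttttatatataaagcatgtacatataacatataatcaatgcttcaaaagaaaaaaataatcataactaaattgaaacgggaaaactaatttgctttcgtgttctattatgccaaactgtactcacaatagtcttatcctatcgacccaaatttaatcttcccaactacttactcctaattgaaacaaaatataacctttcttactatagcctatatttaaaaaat
GPAT5 held 3 copies of the ACGTG core and FAR1 held 1, and FAR4 and KCS2 had it as well. That is 4 of 10 genes, where 25.6% of all 27443 promoters of this length hold it. ASFT held 2 AC elements, 1 on each strand, and ABCG2 was the other gene with one, where 15.9% of all promoters do. On either strand the W box core TTGAC was in 7 of the 10 promoters and in 50.4% of all, the TGA box core TGACG in 2 (FAR5 and GPAT5) and in 21.3% of all, and the G-box CACGTG in 0 of 10 and in 7.09% of all. In GPAT5 the TGACG overlaps a copy of ACGTG, and the CYP86A1 window held none of these motifs. A match of letters is a description of the window, not a bound site.

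Library totals ran from 5031509 to 102576624 counts in the root (median 29711587) and from 46189 to 221250466 in the shoot (median 34621679). Levels are in CPM, counts relative to the library's total, with totals scaled within each tissue unless another scale is named. The shoot library of 46189 counts is control replicate 1 at 7 h, against 5394870 in the next lowest, and 7 of the 10 genes have 0 counts in it. The summed level of 5 photosynthetic genes was 13.2 to 152 CPM in root libraries and 18157 to 67650 CPM in shoot libraries. All 10 suberin genes passed the filter on low counts in both tissues, where 21367 genes were tested in the root and 21263 in the shoot.

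Before any transfer, 8 of the 10 genes were higher in root than in shoot, KCS20 was lower, and FAR1 did not pass the test (38.1% of 22322 genes were higher and 42.2% lower). On the scale of all libraries together, CYP86A1 averaged 198 ± 4.04 CPM in root and 8.63 ± 2.46 CPM in shoot (SD, n = 4 each), which is 23.3-fold (log2 difference 4.54 ± 0.21, adjusted p = 7.09e-36, edgeR quasi-likelihood test with Benjamini-Hochberg adjustment, as for all adjusted p below unless another tool is named). Errors of log2 values are SE. FAR5 was 21.2-fold and KCS2 7.62-fold higher in root. KCS20 averaged 52.4 ± 3.76 CPM in root and 212 ± 20.1 CPM in shoot (log2 difference -2.02 ± 0.12, adjusted p = 1.7e-28), so the pair of elongases, alike in sequence, lay on opposite sides. FAR1 averaged 6.33 ± 0.43 CPM in root and 6.34 ± 1.44 CPM in shoot (log2 difference -0.03 ± 0.14, adjusted p = 0.872). With DESeq2 size factors the median of all genes moves by 0.28 (log2), KCS20 is at -1.74, and FAR1 at 0.26 (adjusted p = 0.0768).

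Per length of exon, CYP86A1 led the root order at 0 h with 106 ± 2.17 CPM per kb, and ASFT came next with 44.6 ± 2.72 CPM per kb. FAR5, KCS2 and KCS20 followed at 25.8 ± 1.53, 24.7 ± 2.02 and 23.6 ± 1.7 CPM per kb, and the ranges of neighbours in this order overlapped. ABCG2 had 18.6 ± 0.767 CPM per kb, GPAT5 15.9 ± 1.76 and CYP86B1 15.2 ± 1.35, the last pair with overlapping ranges. FAR4 had 10.5 ± 0.888 CPM per kb and FAR1 the least, 2.79 ± 0.19 CPM per kb. In the shoot KCS20, at 95.7 ± 9.05 CPM per kb, stood apart from the others, which lay between 0.808 ± 0.287 (CYP86B1) and 5.12 ± 1.5 CPM per kb (ASFT).

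**Figure D1:**
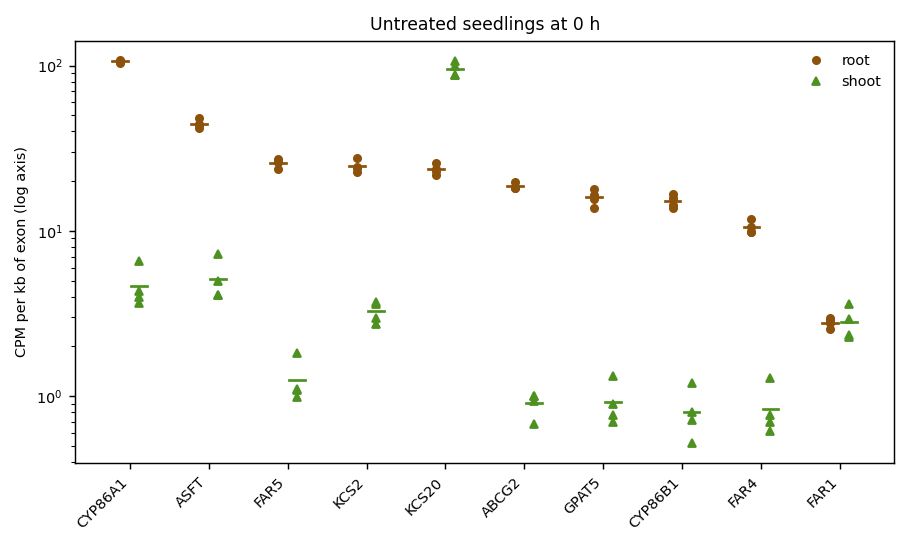
Levels of the 10 genes in untreated seedlings at 0 h, in CPM per kb of exon on a log axis, ordered by root level. Points are libraries (4 root, brown circles, and 4 shoot, green triangles) and bars are means. Root points lie above shoot points for 8 genes, the FAR1 points overlap, and KCS20 averages 23.6 in root and 95.7 in shoot.

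Without hormone, root levels moved with time after transfer, and the joint test of any difference among the 7 times called all 10 genes (87% of root genes). FAR1 had 31.3, 23.9 and 32.6 CPM at 48 h, against 7.95, 7.05, 7.72 and 8.16 CPM at 0 h, with no overlap (log2 fold change 1.94 ± 0.13, adjusted p = 2.69e-16). GPAT5 had 18.8, 18.6 and 21.9 CPM at 48 h, against 43.9, 38.1, 33.9 and 39.7 CPM at 0 h (log2 fold change -0.96 ± 0.15). ASFT and CYP86B1 were higher at 4 h than at 0 h, by 1.25 ± 0.11 and 1.15 ± 0.13 on the log2 scale. Of the tests at the 6 later times, 36 of 60 passed in the root, 28 of them higher (33.2%, 49%, 28%, 62.7%, 34% and 35.1% of root genes were called in either direction from 1 to 48 h). By time 4, 4, 7, 5, 4 and 4 genes were higher, beside 17.1%, 24.8%, 14.7%, 31.3%, 17.5% and 17.7% of root genes. Lower were 0, 2, 0, 2, 0 and 4, beside 16.1%, 24.1%, 13.3%, 31.4%, 16.5% and 17.4% of root genes. In the shoot 16 of 60 passed, all higher (14%, 22.5%, 17.9%, 29.3%, 33.2% and 38.7% of shoot genes were called in either direction), and this count was 27 without replicate 1 and 6 without replicate 2. By time 3, 4, 3, 0, 3 and 3 shoot calls were made, beside 8.71%, 12.2%, 10.5%, 14.8%, 17.9% and 21.7% of shoot genes higher. At 7 h DESeq2 also called 0, and FAR5 was the 1 gene with an unadjusted p below 0.05 by edgeR. The library-name prefix changes along the root course between 1 and 2 h and between 24 and 48 h. Along the shoot course it changes between 2 and 4 h and between 24 and 48 h. Across those steps time and prefix cannot be told apart. The hormone comparisons below are each made within 1 time.

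With ABA, 9 of the 10 genes were higher in the root at 2, 4 and 7 h, and none was called lower at any time. From 1 to 48 h the number higher was 6, 9, 9, 9, 6 and 7, which is 46 of 60 tests, while 20.9%, 26.4%, 25.8%, 24.7%, 21.1% and 17.4% of root genes were higher. Called lower were 19.6%, 26.2%, 24.4%, 26.3%, 18.3% and 14.7% of root genes. The median log2 fold change of the 10 genes was 1.29 at 2 h, 1.27 at 4 h and 0.40 at 48 h, beside -0.04, -0.01 and -0.01 over all genes. The list was chosen with results of these data known, so its counts are a description.

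Of the elongases, KCS2 had 464, 403 and 292 CPM in ABA roots at 2 h, against 92.6, 91 and 88.5 CPM in control roots (4.26-fold, log2 fold change 2.09 ± 0.12, adjusted p = 1.48e-20). Every ABA library lay above every control library, at this time and at the other 5. KCS2 had 125, 146 and 134 CPM in ABA roots at 48 h, against 37.2, 42.3 and 48.2 CPM in control roots (log2 fold change 1.66 ± 0.12, adjusted p = 3.48e-16). KCS20 had 349, 277 and 210 CPM in ABA roots at 2 h, against 62.1, 69 and 69.2 CPM in control roots (4.18-fold, log2 fold change 2.06 ± 0.14, adjusted p = 1.53e-17). These groups did not overlap at 2 h or at 48 h. KCS20 had 80.4, 89.2 and 89.5 CPM in ABA roots at 48 h, against 62.4, 70.7 and 66.5 CPM in control roots (log2 fold change 0.38 ± 0.14, adjusted p = 0.0275), and without replicate 2 this call was lost (adjusted p = 0.212), as it was without replicate 3 (0.0703). Its call at 24 h was lost without replicate 2 (0.115).

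Of the hydroxylases, CYP86B1 had 188, 122 and 89.3 CPM in ABA roots at 2 h, against 54.5, 57.1 and 48.7 CPM in control roots (log2 fold change 1.32 ± 0.14, adjusted p = 7.46e-11). The groups did not overlap at 2 h, but they did at 48 h. CYP86B1 had 44.1, 50.3 and 47.1 CPM in ABA roots at 48 h, against 39.9, 46.8 and 46.9 CPM in control roots (log2 fold change 0.09 ± 0.15, adjusted p = 0.721). CYP86A1 passed the test at none of the 6 times, nor in the joint test over them (adjusted p = 0.152). CYP86A1 had 269, 190 and 174 CPM in ABA roots at 2 h, against 174, 201 and 181 CPM in control roots, and these overlapped. Its highest log2 fold change, 0.29 ± 0.13 at 7 h, had an adjusted p of 0.0521, and of 0.0326 without replicate 1.

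All 3 fatty alcohol reductases were higher with ABA. FAR1 had 16.9, 21.5 and 15.6 CPM in ABA roots at 4 h, against 7.77, 7.42 and 7.37 CPM in control roots (2.41-fold, log2 fold change 1.27 ± 0.14, adjusted p = 2.14e-10). FAR4 had 67.2, 97.9 and 96.5 CPM in ABA roots at 7 h, against 34, 35.1 and 38.3 CPM in control roots (2.43-fold, log2 fold change 1.28 ± 0.10, adjusted p = 3.23e-15). FAR5 had 343, 284 and 231 CPM in ABA roots at 2 h, against 115, 117 and 128 CPM in control roots (2.39-fold, log2 fold change 1.26 ± 0.09, adjusted p = 2.65e-16). ABA and control libraries did not overlap in any of these. At 48 h the log2 fold changes were 0.61 ± 0.13 for FAR1, 0.41 ± 0.10 for FAR4 and 0.29 ± 0.09 for FAR5. Without replicate 2 the 48 h call was lost for FAR4 (adjusted p = 0.0611) and FAR5 (0.0926), and for FAR5 also without replicate 1 (0.0881). With KCS20, that leaves 4 of the 10 genes called at 48 h without replicate 2, in place of 7.

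At 2 h GPAT5 and ASFT had the largest ABA folds of the 10 genes in the root, while at 1, 7, 24 and 48 h KCS2 had the largest. GPAT5 had 231, 173 and 119 CPM in ABA roots at 2 h, against 36.6, 38.4 and 35.3 CPM in control roots (4.74-fold, log2 fold change 2.25 ± 0.15, adjusted p = 2.17e-17). ASFT had 770, 629 and 409 CPM in ABA roots at 2 h, against 116, 133 and 120 CPM in control roots (4.89-fold, log2 fold change 2.29 ± 0.12, adjusted p = 9.57e-21). For both genes every ABA library was above every control library of its time, at all 6 times. Replicate 3 of ABA roots at 2 h was the lowest of its group for all 10 genes. The transporter ABCG2 was called at 2, 4 and 7 h only, and had 90.3, 69.6 and 58.1 CPM in ABA roots at 2 h, against 46.1, 47.6 and 51.8 CPM in control roots (1.51-fold, log2 fold change 0.60 ± 0.13, adjusted p = 0.000127). Without replicate 2 its 7 h call was lost (adjusted p = 0.0884), and without replicate 3 its 24 h value passed (0.0304).

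In 8 of the 10 genes the ABA difference was smaller late than early. For the mean of 24 and 48 h minus that of 2 and 4 h, all 10 log2 differences were below 0 and these 8 passed the test, where 15.7% of root genes were lower and 12.4% higher. KCS20 had -1.43 ± 0.13, GPAT5 -1.04 ± 0.15 and KCS2 -0.33 ± 0.11. The KCS2 call was lost without replicate 2 (adjusted p = 0.124) or replicate 3 (0.096), and that of FAR1 without replicate 1 (0.0607) or replicate 2 (0.0568). CYP86A1 and ABCG2 did not pass.

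Markers of other root cell types were read in the same ABA roots. The summed level of 10 Casparian strip and endodermis genes overlapped between ABA and control roots at 1, 2, 4 and 24 h. At 7 h it was 292 to 299 CPM in ABA roots, against 393 to 438 CPM in control roots, with 1 gene higher and 7 lower (beside 24.7% and 26.3% of root genes). At 48 h it was 428 to 468 CPM in ABA roots, against 379 to 409 CPM in control roots, with 3 higher and 0 lower (beside 17.4% and 14.7% of root genes). Of the 4 root hair genes none was lower at any time (beside 19.6%, 26.2%, 24.4%, 26.3%, 18.3% and 14.7% of root genes from 1 to 48 h). All 4 root hair genes were higher at 2 and 4 h, and 3 at 24 and 48 h (beside 26.4%, 25.8%, 21.1% and 17.4% of root genes). Their sum was 291 to 410 CPM in ABA roots at 4 h, against 201 to 258 CPM in control roots, and the part of these markers in the ABA results was not tested.

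**Figure D2:**
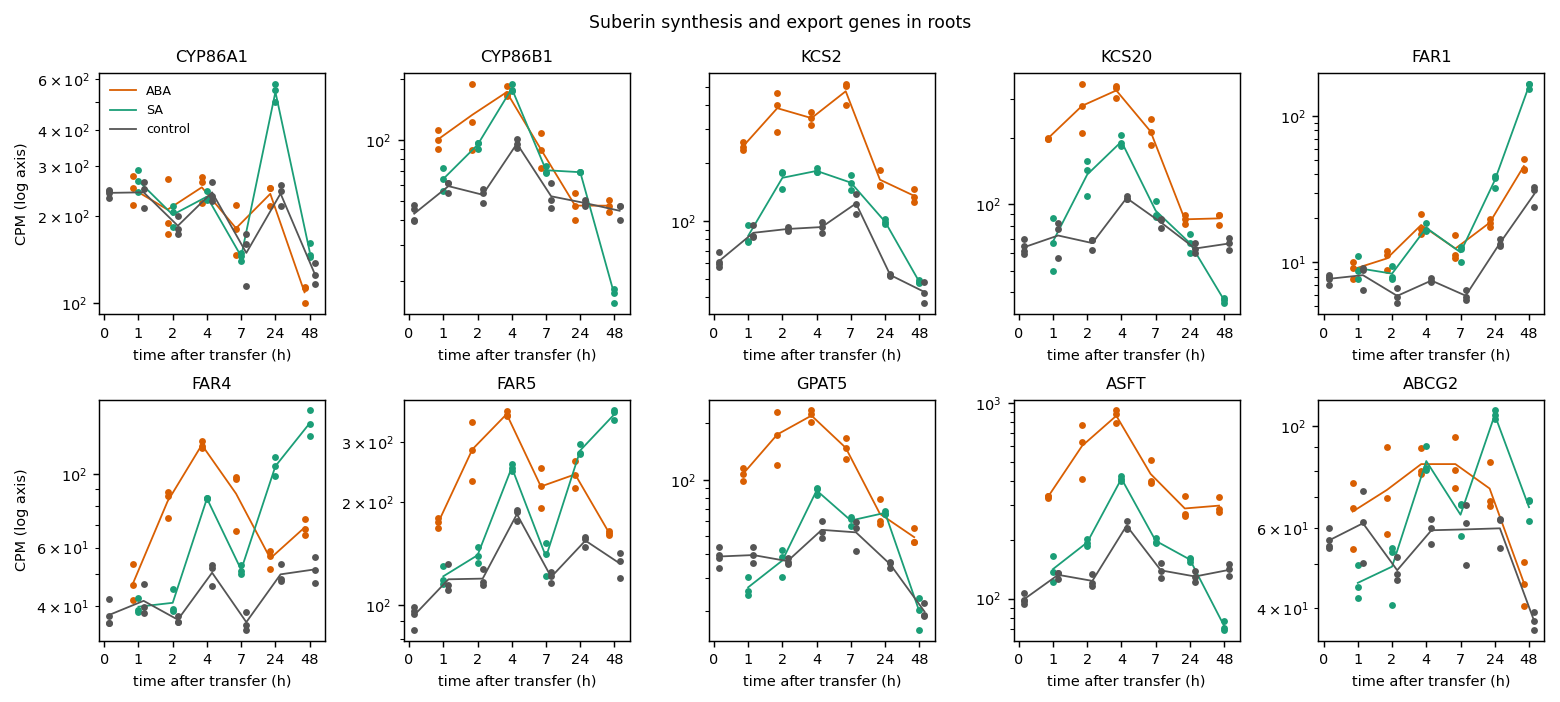
Root levels of the 10 genes by time after transfer (0 to 48 h, evenly spaced), in CPM on a log axis. Points are libraries and lines join group means, for ABA (orange), SA (green) and control (grey). ABA lies above control at every time for KCS2, KCS20, FAR5, GPAT5 and ASFT, CYP86A1 stands out in SA at 24 h, and FAR1 reaches 153 to 166 CPM in SA at 48 h.

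With SA, none of the 10 genes was called higher in the root at 1 h, 9 were higher at 4 h and at 24 h, and at 48 h the calls went in both directions. The number higher from 1 to 48 h was 0, 6, 9, 5, 9 and 4, beside 22.7%, 29.4%, 30.8%, 27.9%, 32.1% and 36.1% of root genes. The number lower was 2 at 1 h and 3 at 48 h, and none was called lower between (beside 22.5%, 32.1%, 30.8%, 30.4%, 32.9% and 38.7% of root genes from 1 to 48 h). Of 60 tests 38 passed, 33 of them higher. The 2 genes lower at 1 h were GPAT5 and ABCG2, and without replicate 2 neither was called (adjusted p = 0.143 and 0.27). At 48 h the shares among the 10 genes were near those of all genes.

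At 4 h the median log2 fold change was 0.77 for the 10 genes and -0.0046 over all genes. KCS2 had 188, 179 and 179 CPM in SA roots at 4 h, against 92.6, 99.1 and 86.7 CPM in control roots (log2 fold change 0.97 ± 0.11, adjusted p = 2.64e-10). FAR1 had 18.5, 16.4 and 16.8 CPM in SA roots at 4 h, against 7.77, 7.42 and 7.37 CPM in control roots (log2 fold change 1.20 ± 0.14, adjusted p = 5.32e-10). Neither gene's groups overlapped, and CYP86A1 was the gene that did not pass, at -0.05 ± 0.12. At 7 h the KCS2 call was lost without replicate 2 (adjusted p = 0.123), and at 2 h the FAR5 call was lost without replicate 1 (0.0506), replicate 2 (0.0828) or replicate 3 (0.0641).

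At 24 h the hydroxylase CYP86A1 was called for the only time in roots. It had 500, 577 and 549 CPM in SA roots at 24 h, against 245, 218 and 257 CPM in control roots (2.26-fold, log2 fold change 1.18 ± 0.13, adjusted p = 3.43e-11). The groups were apart, and the level was the highest of CYP86A1 in any root group. Of the SA libraries at 24 h, replicate 1 shares its library-name prefix with the controls. With that library alone, assumed to vary like the other groups, CYP86A1 was at 1.08 (adjusted p = 6.54e-07). Of the 9 calls at this time that of ASFT was lost in this way (0.211), and also without replicate 1 (0.0629) or replicate 2 (0.0961).

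At 48 h the 3 reductases were all higher. FAR1 had 153, 165 and 166 CPM in SA roots at 48 h, against 31.3, 23.9 and 32.6 CPM in control roots (5.44-fold, log2 fold change 2.44 ± 0.13, adjusted p = 1.06e-21). FAR4 had 130, 155 and 141 CPM in SA roots at 48 h, against 46.9, 51.5 and 56.4 CPM in control roots (2.74-fold, log2 fold change 1.45 ± 0.10, adjusted p = 1.08e-17). FAR5 had 368, 371 and 348 CPM in SA roots at 48 h, against 120, 135 and 143 CPM in control roots (2.73-fold, log2 fold change 1.45 ± 0.09, adjusted p = 6.7e-19). The groups were apart in each case, and FAR1 had its highest level of all root groups here. ABCG2 was the other gene that rose, and had 69.2, 68.6 and 62 CPM in SA roots at 48 h, against 37.5, 39.2 and 35.9 CPM in control roots (1.78-fold, log2 fold change 0.83 ± 0.13, adjusted p = 2.81e-07).

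The genes that fell at 48 h were a hydroxylase, the feruloyl transferase and an elongase, and the other hydroxylase and the other elongase were not called. The hydroxylase CYP86B1 had 17.4, 18.2 and 15.5 CPM in SA roots at 48 h, against 39.9, 46.8 and 46.9 CPM in control roots (log2 fold change -1.39 ± 0.15, adjusted p = 4.58e-11). The feruloyl transferase ASFT had 77.2, 70.8 and 69.5 CPM in SA roots at 48 h, against 130, 141 and 150 CPM in control roots (log2 fold change -0.95 ± 0.12, adjusted p = 2.08e-09). The elongase KCS20 had 35.7, 37.8 and 37.1 CPM in SA roots at 48 h, against 62.4, 70.7 and 66.5 CPM in control roots (log2 fold change -0.85 ± 0.14, adjusted p = 5.54e-07). The SA libraries lay below the controls in all 3 genes. GPAT5 (-0.02 ± 0.16), KCS2 (0.16 ± 0.12) and CYP86A1 (0.26 ± 0.13, adjusted p = 0.0588) did not pass. CYP86A1 passed with DESeq2 size factors (adjusted p = 0.0337) and without replicate 2 (0.0486), and KCS2 without replicate 3 (0.0402).

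Late minus early, the SA difference was larger for FAR1 (1.06 ± 0.14), FAR5, FAR4, CYP86A1 and ABCG2, and smaller for KCS20 (-1.32 ± 0.14), CYP86B1, ASFT and KCS2 (27.8% of root genes were higher and 31.6% lower in this contrast). The KCS2 call was lost without replicate 2 (adjusted p = 0.0628).

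Markers of the root's cell types moved in the same SA roots, and not one way at all times. The summed Casparian strip and endodermis genes were lower at 2, 4 and 48 h. At 4 h they had 257 to 279 CPM in SA roots, against 422 to 496 CPM in control roots, with 3 genes higher and 7 lower (beside 30.8% and 30.8% of root genes). At 48 h they had 246 to 252 CPM in SA roots, against 379 to 409 CPM in control roots, with 1 higher and 7 lower (beside 36.1% and 38.7% of root genes). Their sum was higher at 7 h and at 24 h. At 7 h it was 484 to 528 CPM in SA roots, against 393 to 438 CPM in control roots, with 5 higher and 1 lower (beside 27.9% and 30.4% of root genes). At 24 h it was 465 to 505 CPM in SA roots, against 402 to 445 CPM in control roots, with 2 higher and 1 lower (beside 32.1% and 32.9% of root genes). Of the 4 root hair markers 3 were lower at 7 h and all 4 at the other times (beside 22.5%, 32.1%, 30.8%, 30.4%, 32.9% and 38.7% of root genes lower from 1 to 48 h). The sum of these 4 was 27.7 to 36.5 CPM in SA roots at 48 h, against 257 to 285 CPM in control roots. None of these markers was at 0 in a root library, and their part in the SA results was not tested.

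**Figure D3:**
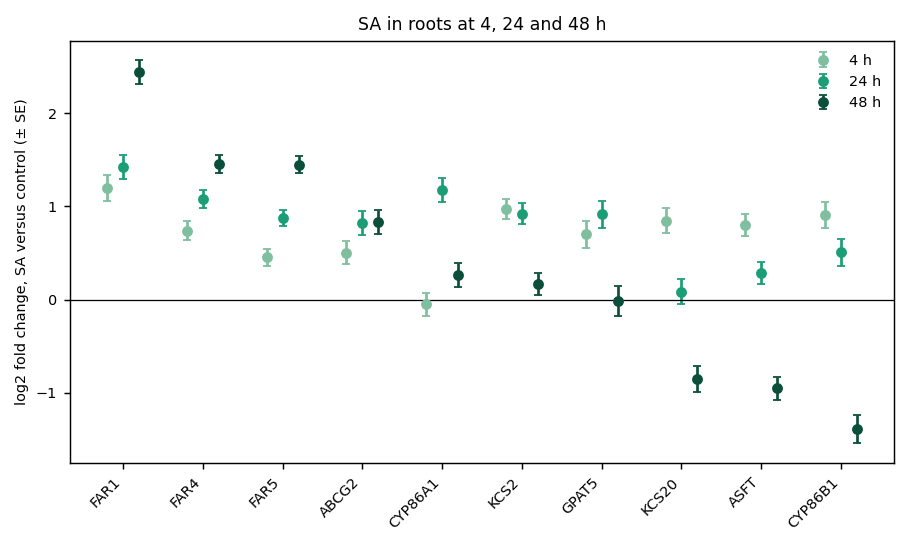
Log2 fold change of SA against control in roots at 4, 24 and 48 h for the 10 genes, with error bars of 1 SE, ordered by the 48 h value. At 48 h the values run from 2.44 (FAR1) to -1.39 (CYP86B1), while at 4 h 9 of the 10 lie above 0.

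Compared directly, ABA roots were higher than SA roots in 8, 8, 6, 9, 3 and 5 of the 10 genes from 1 to 48 h, beside 27.7%, 34.2%, 33.3%, 32.6%, 34.1% and 40.2% of root genes. They were lower in 6 genes at 24 h and in 5 at 48 h, and in none before (beside 25.9%, 31.6%, 31.3%, 30.5%, 30.5% and 37% of root genes from 1 to 48 h). At 48 h ASFT was 4.12-fold higher with ABA (log2 difference 2.04 ± 0.12), and FAR1 was 3.55-fold lower (log2 difference -1.83 ± 0.12). GPAT5, KCS2, KCS20 and CYP86B1 were also higher with ABA at that time, and FAR4, FAR5, CYP86A1 and ABCG2 were lower. At 2 h the calls of ABCG2 and CYP86B1 were lost without replicate 1 (adjusted p = 0.186 and 0.572). At 24 h replicates 2 and 3 of SA carry another library-name prefix than the ABA libraries.

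In shoots, where most of these genes start low, most rose with ABA. From 1 to 48 h 5, 8, 8, 8, 9 and 7 genes were higher and none was called lower, which is 45 of 60 tests, beside 14.5%, 16.4%, 12.9%, 8.47%, 9.97% and 7.79% of shoot genes higher. Called lower were 10.9%, 14%, 14.7%, 8.98%, 8.62% and 7.46% of shoot genes. With the replicate number as a block, FAR5 was called at 48 h as well (adjusted p = 0.0489). KCS2 had 230, 206 and 200 CPM in ABA shoots at 2 h, against 12.2, 9.24 and 10.1 CPM in control shoots (20.2-fold, log2 fold change 4.34 ± 0.18, adjusted p = 5.64e-24). GPAT5 had 45.8, 33.6 and 44.4 CPM in ABA shoots at 4 h, against 2.02, 2.93 and 1.5 CPM in control shoots (19-fold, log2 fold change 4.25 ± 0.26, adjusted p = 1.84e-17). ASFT had 162, 170 and 174 CPM in ABA shoots at 2 h, against 8.31, 10.5 and 8.48 CPM in control shoots (18.5-fold, log2 fold change 4.21 ± 0.21, adjusted p = 8.78e-21). In these genes the ABA libraries lay above all controls of the same time at all 6 times.

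At 4 h the log2 fold changes in ABA shoots were 3.26 ± 0.23 for CYP86B1, 2.65 ± 0.17 for FAR1, 2.63 ± 0.25 for FAR4 and 2.34 ± 0.25 for FAR5. ABCG2 was at 0.84 ± 0.22 then, a call lost without replicate 3 (adjusted p = 0.109), and had 10.9, 10.1 and 8.58 CPM in ABA shoots at 24 h, against 3.44, 2.28 and 3.14 CPM in control shoots (log2 fold change 1.75 ± 0.21, adjusted p = 1.29e-08). KCS20, high in the shoot from the start, passed only at 2 h (0.48 ± 0.11). CYP86A1 passed only at 24 h, and had 16.2, 17.3 and 16.7 CPM in ABA shoots at 24 h, against 8.07, 5.65 and 7.91 CPM in control shoots (log2 fold change 1.22 ± 0.28, adjusted p = 0.000866). That call was lost without replicate 2 (adjusted p = 0.0639). Late minus early, 7 genes had a smaller and ABCG2 a larger ABA difference (6.53% of shoot genes were lower and 5.29% higher), and this count of 8 was 4 without replicate 2 and 2 without replicate 3. The ABCG2 call was lost without replicate 2 (adjusted p = 0.284).

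Root markers were low in the shoot samples. The 4 root hair markers summed to 0 to 5.77 CPM in shoot libraries and to 23.5 to 581 CPM in root libraries. The 10 Casparian strip and endodermis markers summed to 47.4 to 68.1 CPM in ABA shoots and to 55.4 to 90.6 CPM in control shoots from 1 to 48 h. At each time 0 or 1 of these 10 was higher with ABA in the shoot, and 3 to 7 were lower (beside 7.79% to 16.4% of shoot genes higher and 7.46% to 14.7% lower).

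With SA, 10 of the 22 calls in the shoot fell at 48 h. None passed at 1 h or 2 h by edgeR (0.856% and 7.28% of shoot genes were called), and DESeq2 also called 0 at both times, while 0 at 1 h and 2 at 2 h (CYP86A1 and KCS2) had an unadjusted p below 0.05. With the replicate number as a block, KCS2 was called at 2 h (adjusted p = 0.04) and KCS20, lower, at 4 h (0.0366). At 4 h ASFT, CYP86B1 and FAR5 were higher (14% of shoot genes were higher and 8.83% lower), and none of the 3 was called without replicate 2 or without replicate 3. At 7 h ASFT and CYP86B1 were higher and KCS20 lower (20% and 17.7%), and without replicate 2 KCS20 was the 1 gene called. Without replicate 3 the calls of ASFT (adjusted p = 0.12) and CYP86B1 (0.0613) were lost and ABCG2 passed (0.0411). At 24 h 5 genes were higher and KCS20 lower (29.3% and 30.4%), and 1 call was left without replicate 2. At 48 h 9 genes were higher and KCS20 lower (32% and 32.9%).

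FAR4 had 8.26, 7.45 and 7.2 CPM in SA shoots at 48 h, against 2.39, 2.91 and 2.82 CPM in control shoots (log2 fold change 1.50 ± 0.25, adjusted p = 1.31e-06). GPAT5 had 4.04, 4.4 and 5.85 CPM in SA shoots at 48 h, against 1.82, 2.03 and 1.55 CPM in control shoots (log2 fold change 1.36 ± 0.28, adjusted p = 3.36e-05). KCS20 had 80.8, 87.3 and 93.2 CPM in SA shoots at 48 h, against 153, 217 and 225 CPM in control shoots (log2 fold change -1.19 ± 0.11, adjusted p = 1.63e-12). None of these groups overlapped. With DESeq2 size factors the median of all genes moves by 0.12 (log2) in this comparison, and the directions of the 10 genes do not change. All 5 photosynthetic markers were lower in the same shoots, with a sum of 18157 to 19994 CPM in SA shoots at 48 h, against 50187 to 57729 CPM in control shoots, and their part in these results was not tested.

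Compared directly in shoots, ABA was higher than SA in 5, 9, 9, 9, 9 and 5 genes from 1 to 48 h (beside 14.1%, 15.7%, 13.1%, 23.4%, 31.2% and 34% of shoot genes), and lower in 2 at 48 h (beside 10.9%, 15.2%, 17.2%, 24.8%, 30.7% and 31.8% of shoot genes lower from 1 to 48 h). The 2 were CYP86A1 (-1.47 ± 0.28) and FAR5 (-0.90 ± 0.24). With DESeq2 size factors the median of all genes moves by -0.11 here, and no called direction changes. In SA shoots at 2 h the libraries carry another name prefix than the ABA and control libraries, and prefix and treatment cannot be told apart there.

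**Figure D4:**
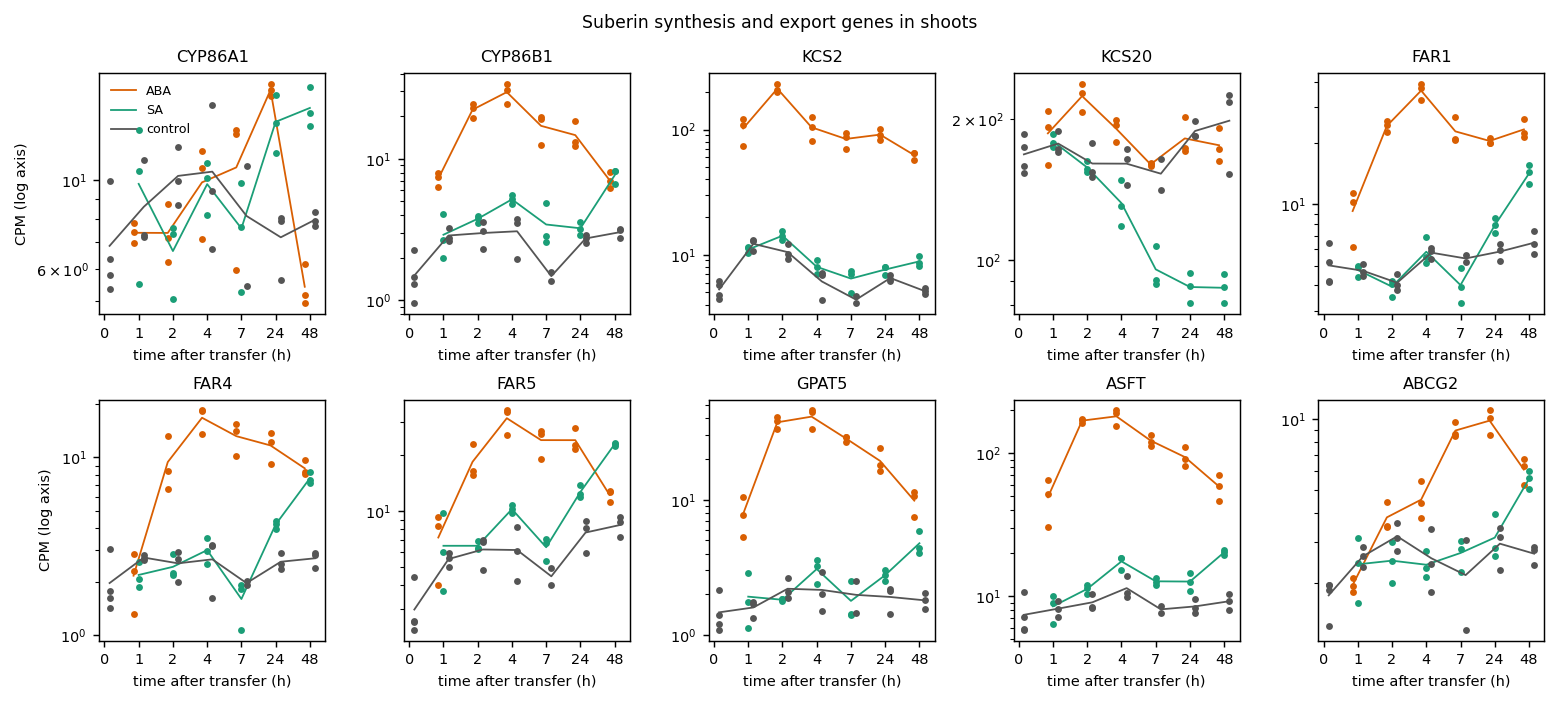
Shoot levels of the 10 genes by time after transfer, drawn as for the root, without the control library of 46189 counts at 7 h. ABA (orange) lies above SA (green) and control (grey) for KCS2, GPAT5 and ASFT, and KCS20 in SA falls to 80.8 to 93.2 CPM at 48 h.

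The difference between tissues was tested itself. With ABA, the root effect was smaller than the shoot effect in 3, 6, 7, 8, 9 and 7 genes from 1 to 48 h, beside 7.51%, 8.09%, 6.79%, 5.43%, 4.93% and 3.96% of 22322 genes. It was larger in 1 gene, KCS20, at each time but 24 h, beside 7.41%, 10.3%, 10.2%, 6.23%, 5.77% and 5.97% of genes. Of 60 tests 45 passed. At 2 h the root effect minus the shoot effect was -2.22 ± 0.20 for KCS2 and 1.60 ± 0.19 for KCS20 on the log2 scale. The KCS20 call at 48 h was lost without replicate 2 (adjusted p = 0.411) or replicate 3 (0.449). With root and shoot libraries of equal number as a block, the FAR4 call at 2 h was lost (adjusted p = 0.0659, against 0.0342). The shoot folds start from low levels: on the scale of all libraries, GPAT5 at 4 h had 55.5, 42.4 and 55.9 CPM in ABA shoots and 42.9, 48.5 and 39.8 CPM in control roots.

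With SA, 0, 3, 4, 3, 4 and 5 genes differed between tissues from 1 to 48 h, which is 19 of 60 tests, beside 12.8%, 32.5%, 28.8%, 23.4%, 42% and 50.3% of genes. At 2 h the SA shoot libraries carry another name prefix than their controls, and at 24 h so do replicates 2 and 3 of SA roots. In the tests at these times prefix and treatment are not fully separate. At 1 h edgeR and DESeq2 both called 0, and GPAT5 was the 1 gene with an unadjusted p below 0.05. At 48 h CYP86B1 was lower in SA roots and higher in SA shoots, with a difference of -2.52 ± 0.28 (adjusted p = 6.13e-13), and so was ASFT, with -1.90 ± 0.24. FAR1 rose in both tissues and more in the root, by 1.52 ± 0.21. The GPAT5 difference at 48 h, -1.17 ± 0.32, was not called without replicate 3 (adjusted p = 0.0876). With root and shoot libraries of equal number as a block, the FAR4 call at 7 h was lost (adjusted p = 0.105, against 0.0416).

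Across the 6 times the hormone effect was unequal in 8 of the 10 genes for ABA in the root (43.7% of root genes), and in all 10 for ABA in the shoot (15.2%), SA in the root (81%) and SA in the shoot (55.4%).

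**Figure D5:**
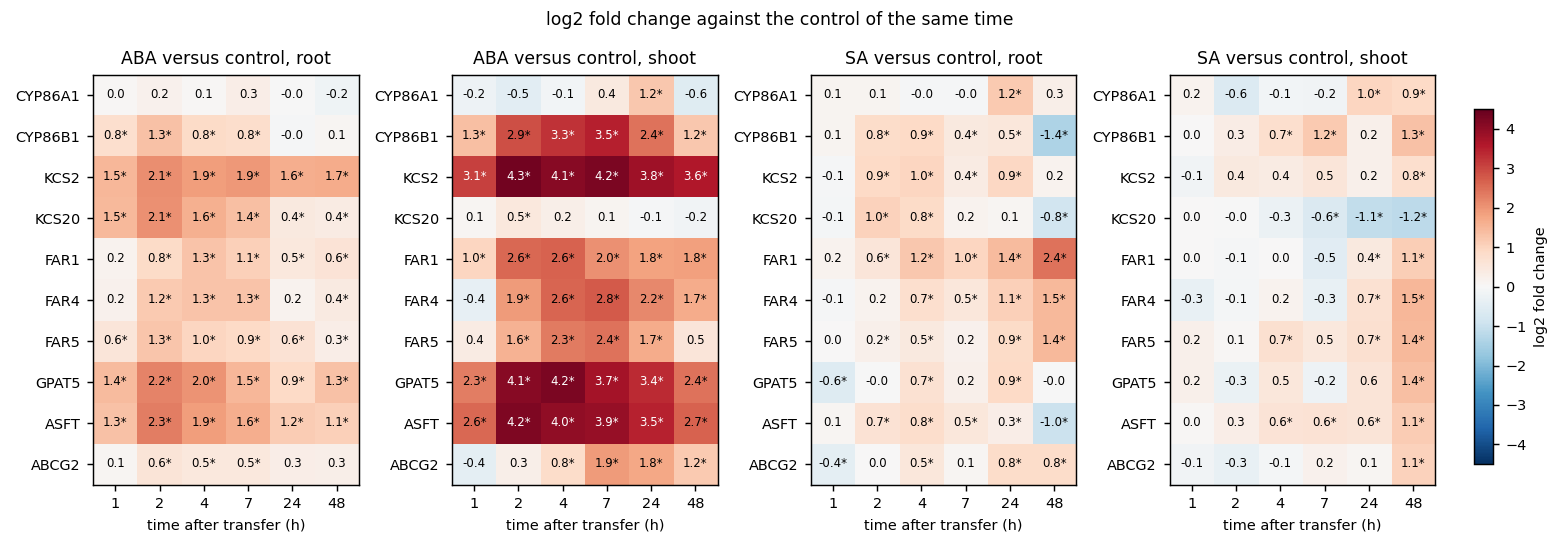
Log2 fold change against the control of the same time for the 10 genes (rows) at 6 times (columns), for ABA in root and shoot and for SA in root and shoot. Red is higher and blue lower than control, the number is the log2 fold change, and an asterisk marks an adjusted p below 0.05. The ABA panels hold no called value below 0, and the SA root column at 48 h holds called values on both sides, 4 above and 3 below.

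Other genes of the pathway were read in the same way. In the comparisons named here the median log2 fold change over all genes lay between -0.04 (ABA roots at 2 h) and -0.0046 (SA roots at 4 h). All 7 further suberin genes were higher in ABA roots at 2 h and at 4 h, with median log2 fold changes of 1.84 and 1.28, while 26.4% and 25.8% of all root genes were higher. At 2 h GPAT7, a relative of GPAT5, was at 3.53, and the transporters ABCG1 and ABCG6 were at 2.83 and 2.59. In SA roots at 48 h 2 of the 7 were higher and 3 lower (median -0.31), shares near those of all root genes, of which 36.1% were higher and 38.7% lower. FACT, which joins caffeic acid to fatty alcohols, averaged 479 ± 28.6 CPM in SA roots and 140 ± 0.41 CPM in control roots (SD, n = 3 each). ABCG6, ABCG20 and the lipid transfer protein LTPG15 were lower there, at -1.65, -1.53 and -1.34.

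Of 9 transcription factors linked to suberin, 6 were higher and 0 lower in ABA roots at 2 h (median 0.62, beside 26.4% of root genes higher). MYB41 averaged 64.6 ± 6.4 CPM in ABA roots at 4 h and 9.29 ± 1.15 CPM in control roots (SD, n = 3 each), and MYB107 was at 1.83 on the log2 scale. In SA roots at 4 h 5 were higher and 1 lower (median 0.35, beside 30.8% of root genes higher and 30.8% lower), with MYB107 at 1.95 and MYB39 at 1.54. At 48 h 3 were higher and 5 lower (median -0.40, beside 36.1% and 38.7% of root genes), with MYB93 at 1.17, MYB41 at -1.08 and MYB39 at -1.86.

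Of 13 genes for cutin and wax, the lipids of the shoot surface, all were lower in SA shoots at 48 h (median log2 fold change -1.31, beside 32.9% of shoot genes lower). At that time 9 of the 10 suberin genes were higher and KCS20 was lower. A summed level is another measure than a count of genes. The 7 further suberin genes summed to 75.9 to 81.9 CPM in SA shoots at 48 h, against 105 to 135 CPM in control shoots. The 10 suberin genes, KCS20 among them, summed to 187 to 204 CPM in SA shoots, against 203 to 273 CPM in control shoots. In roots 12 of the cutin and wax genes were tested, and 3 were higher and 9 lower with SA at 48 h (median -1.51), beside 36.1% and 38.7% of root genes. Of 10 phenylpropanoid genes, which supply ferulic and caffeic units, 8 were higher and 1 lower in ABA roots at 2 h (median 0.55, beside 26.4% of root genes higher), and 1 was higher and 6 lower in SA roots at 48 h (median -0.38, beside 38.7% of root genes lower). Of the 10 Casparian strip and endodermis genes 3 were higher and none lower in ABA roots at 48 h (beside 17.4% and 14.7% of root genes). CASP5, a Casparian strip membrane protein, was 1 of these 3, with a log2 fold change of 3.35. At 7 h 1 of the 10 was higher with ABA and 7 were lower (beside 24.7% and 26.3% of root genes).

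Over the 19 root groups, the mean profile of the 10 genes was most like those of KCS1 (Pearson r = 0.92), AT1G23330 (0.92), MYB52 (0.90), AT3G62590 (0.89) and AT1G19230 (0.89), out of 15719 genes above a floor of 5 CPM on average. These are correlations of group means that share libraries and depth, given as a description. Among the 10 genes, ASFT and KCS20 (r = 0.94) and FAR4 and FAR5 (0.93) were most alike. With the mean of the other 9, GPAT5 had the highest r (0.85), CYP86A1 had 0.25 and FAR1 0.00019.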

How the data were processed

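The authors deposited 1 table of raw whole-number counts per gene for 116 bulk RNA-seq libraries. Per the submitters' processing notes, HISAT2, featureCounts and TAIR10 were used, and strand use and the treatment of multi-mapping reads are not given in the sources used here. From the counts, edgeR 4.0.16 (R 4.3.3) gave two-sided quasi-likelihood F-tests in a group-means model with TMM scaling and filterByExpr, fitted per tissue (58 libraries, 19 groups) or, between tissues, to all libraries (38 groups). P-values were adjusted by Benjamini-Hochberg over all genes of a fit, and a call is an adjusted p below 0.05. The SE of a log2 fold change is its size over the square root of F. P-values set a difference between group means against the spread between libraries within groups, estimated over all groups of a fit. The statistics were tested on simulated data. The labels do not say what replicate numbers share, so pairing was checked per comparison of treatments within a tissue: all 3 same-numbered pairs correlated over 0.1 (deviations from group means) at 5 of 6 times for SA and control shoots, 4 of 6 for ABA and control shoots, 4 of 6 for ABA and SA shoots, and in roots at 0, 1 and 1 of 6. Pairing of root with shoot libraries was not checked, and the tests between tissues treat them as unpaired. Alternatives were DESeq2 1.42.0, its size factors, no filter, leaving out libraries, fits to the groups compared and a replicate block. Gene models and promoters are RefSeq's (TAIR10.1, 27445 of 27655 IDs matched), and similar genes were sought with BLAST 2.17.0. All 10 members are described. Genes of other lists are named only where called, up to the 4 largest changes per list and comparison, or as examples of a count. The 5 most similar profiles are by Pearson correlation of group means of log2(CPM + 0.5). The members and lists were chosen with earlier results of these data known.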

Additional observations from a re-analysis of the deposited data

Results flagged for a closer look

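Among 20 groups of 4 untreated libraries, 1 library stood apart by Dixon's ratio in 2, and chance flags about 1 in 20. ABCG2 in control shoots at 0 h had 1.32 CPM in its lowest library (highest 1.97). FAR5 in the same group of shoots had 4.42 CPM in its highest library (lowest 2.31).

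Root and shoot effects differed by the interaction test in 4, 7, 8, 9, 9 and 8 of the 10 genes with ABA from 1 to 48 h, and in 3, 4, 3, 4 and 5 with SA from 2 to 48 h. With SA that is near the share of all genes, 32.5%, 28.8%, 23.4%, 42% and 50.3%. With ABA 7.51%, 8.09%, 6.79%, 5.43%, 4.93% and 3.96% of all genes had a smaller root effect and 7.41%, 10.3%, 10.2%, 6.23%, 5.77% and 5.97% a larger one from 1 to 48 h. Called in opposite directions in the tissues were ASFT and CYP86B1 with SA at 48 h, with root minus shoot differences of -1.90 and -2.52 on the log2 scale.

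The effect differed among the 6 times in 8 of the 10 genes with ABA in the root, where 43.7% of root genes were called. It differed in 10 with ABA in the shoot (beside 15.2% of shoot genes), with SA in the root (81% of root genes) and with SA in the shoot (55.4% of shoot genes).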

How the results depend on the processing

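No called value changed its sign under any alternative run. Of 240 tests of hormone against control, the call changed in 6 with DESeq2's Wald test, 3 with its size factors, 2 without the filter, 13 when only the groups compared were fitted, 6 without replicate 1, 23 without replicate 2 and 13 without replicate 3. Without the shallow shoot library the call changed in none of the 120 shoot tests. Causes were not tested.

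Leaving out 1 replicate in turn, the late-against-early count for ABA in the shoot was 2 to 8 (8 with all), ABA in the root at 48 h 4 to 6 (7 with all), and the control course in the shoot 6 to 27 (16 with all). SA in the root at 1 h gave 0 to 2 (2 with all). SA in the shoot gave 12 to 23 over all times (22 with all), 0 to 4 at 4 h, 1 to 3 at 7 h and 1 to 6 at 24 h. Fitted to the groups compared alone, SA in the shoot at 2 h gave 1 call in place of 0.

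Over 54 same-numbered pairs the mean correlation was 0.08 in the root (lowest -0.24, 25 best with their own number) and 0.34 in the shoot (lowest -0.03, 41 best with their own). With the replicate number as a block, ABA gave 47 calls in the root and 46 in the shoot, SA 38 and 24, ABA against SA 50 and 48, the control course 35 and 17, the tissue difference 44 with ABA and 18 with SA, and SA in the shoot at 2 h gave 1. In the comparisons of treatments at 1 time where the numbers paired the libraries, the block changed 3 calls, given with their results, and no other. For SA in the shoot, late minus early, ASFT passed with the block (log2 difference 0.39, adjusted p = 0.0446) and not without it (0.0805).

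Low counts limit the shoot values of several members at 0 h, and the 46189 counts of 1 library those of control shoots at 7 h.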
